A study of Mus musculus with 12 samples.

Results

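The complement and clotting genes of the mouse liver were described as a set of 46 genes, taken as every row of the deposited counts table whose gene identifier maps to 1 of 46 listed symbols, out of 55487 genes in the table. Of the 46 genes, 22 belong to complement and 24 to clotting, its inhibitors and fibrinolysis, and all 46 symbols were found. RNA-seq of total RNA covered liver and brain of 6 mice, 3 labelled WT (mice B, D and E) and 3 labelled KO (mice A, C and F), which gives 4 groups of 3 libraries. KO mice carried a whole-body knockout of Mettl5, the methyltransferase that places m6A on 18S rRNA; per the study's methods a floxed exon 2 was made in ES cells of a C57bl/6 x 129S6 F1 hybrid, backcrossed to B6 and removed by crossing to a CMV-cre line. The labels call the control mice WT and give neither sex nor age. The study's captions for the RNA-seq comparisons and for a hormone assay of the same mice name the controls as Mettl5+/-. A caption of RNA-seq read tracks names a Mettl5+/+ control, and the title of a supplementary table says wild type. The study speaks of pairs of sequenced mice, and since no label links a KO mouse to a control, the genotypes were compared without pairing. The labels name no treatment. The question of the design was which transcripts differed between KO and WT within each tissue.

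Complement and clotting are cascades of plasma proteases. In complement, recognition proteins such as mannose-binding lectin activate serine proteases that assemble a C3 convertase, and the terminal components then build the membrane attack complex. In clotting, tissue factor or contact activation leads through factor Xa and thrombin to a fibrin clot, which antithrombin and protein C restrain and plasmin dissolves. Hepatocytes make most of these plasma proteins, while factor VIII and von Willebrand factor come mainly from endothelium, and tissue factor and thrombomodulin sit on the surface of cells outside the circulation or lining it.

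The 12 libraries held 14403309 to 21623180 counts. Mettl5 itself was at 14.9, 8.11 and 8.33 CPM (counts relative to the library total, with TMM factors set within the tissue) in WT liver and at 3.85, 3.63 and 4.06 in KO liver, and at 5.01 to 9.07 in WT brain and 3.33 to 3.95 in KO brain, so KO lay below WT in both tissues. Mitochondrial rRNA took 10.7 to 16.9% of counts in WT liver and 7.36 to 8.66% in KO liver, against 7.63 to 17.7% in WT brain and 21.4 to 31.6% in KO brain. The libraries of mice E and F held at most 20 counts of Y-linked genes and at least 9446 of Xist, and those of the other 4 mice at least 2112 and at most 19. Brain libraries also differed in their regional markers, which were summed over each list: cerebellar genes were at 566 to 868 CPM in WT and 131 to 363 in KO, olfactory bulb genes at 2.64 to 4.36 and 31.7 to 44.8, and choroid plexus genes at 38.6 to 57.1 and 26.1 to 30.4.

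In liver, transcripts of the 46 genes made up 3.005, 3.81 and 3.12% of all counts in WT mice B, D and E and 3.92, 3.60 and 4.12% in KO mice A, C and F. Of the counts outside the mitochondrial genome they made up 3.70, 4.39 and 3.86% in WT and 4.36, 4.06 and 4.55% in KO. The ranges of the genotypes overlapped by either share. C3 alone contributed 21.6 to 31.7% of the counts of the 46 genes in liver and the 3 fibrinogen chain genes together 23.4 to 33.7%. In brain the same 46 genes took 0.0096 to 0.0207% of counts. The liver libraries carried the hepatocyte markers at 76100 to 96400 CPM in sum in WT and 84500 to 94600 in KO, with all 10 markers above the counting floor, and the brain libraries carried the neuron markers at 2150 to 2620 CPM in WT and 2210 to 2320 in KO.

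Levels of different genes were compared per length, as FPKM, the CPM divided by the exon length in kilobases (mean ± SD, n = 3). C3, the central component cleaved by both convertases, was the highest in WT liver at 1744 ± 143 FPKM. The fibrinogen chains followed, with Fgg at 1333 ± 376, Fga at 1037 ± 302 and Fgb at 1005 ± 299 FPKM, and their ranges among the 3 mice overlapped, Fgg reaching 1734 FPKM in mouse D where C3 began at 1581 in mouse B. Vtn, whose product vitronectin restrains the terminal complex, was at 711 ± 95.7 FPKM, its highest value (769.2) lying above the lowest of Fga and Fgb. Plg, the precursor of plasmin, was at 527 ± 43.9 and Kng1, the kininogen of the contact phase, at 470 ± 64.2 FPKM (481.8 to 569.5 against 419.0 to 542.3 FPKM), so their order did not exceed the spread.

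Of the remaining roles, F2 (prothrombin) led the clotting enzymes at 262 ± 12.3 FPKM, Mbl2 the recognition proteins at 236 ± 38.7, Serpinc1 (antithrombin) the anticoagulants at 168 ± 6.63 and C8a the terminal components at 127 ± 90.9. The lead of C8a did not exceed its spread, with C9 at 98.2 ± 60.1 and C8g at 92.9 ± 6.86 FPKM. The lowest members in WT liver were C5ar1, the receptor for C5a on myeloid cells, at 0.162 ± 0.226 FPKM, Cfb at 0.586 ± 0.229, Vwf at 0.795 ± 0.0951, Thbd (thrombomodulin) at 0.967 ± 0.151 and F3 (tissue factor) at 1.06 ± 0.176. For 3 genes the counting itself limits the level: 79.5% of the exon length of Cfb and 42.8% of that of C2 is shared with the same-strand gene model Gm20547, and 43.2% of that of Klkb1 with Gm45753, so reads there may have gone uncounted.

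Several members lie next to each other. Fgg, Fga and Fgb form a cluster on chromosome 3 between 83007724 and 83049863 (mm10), C8b and C8a lie 11130 bases apart on chromosome 4 in opposite orientation, F7 and F10 lie 1498 bases apart on chromosome 8, F11 and Klkb1 4657 bases apart on the same chromosome, C1ra and C1s1 6901 bases apart on chromosome 6, and Cfb and C2 85 bases apart on chromosome 17. In all, 11 pairs of members lie within 1000000 bases of each other. The stretches before the RefSeq starts of the fibrinogen genes are shown because these genes varied together across the livers. Those of C6, C8a, C8b and C9 are shown because, among the members tested in liver, these genes varied most between mice, and that of F5 because it stood out in brain. Sequences are 5′ to 3′ on the gene's strand (RefSeq, GRCm38.p6), begin 250 bases before the start and stop where an exon of the gene begins in either annotation. Capitals mark matches, on either strand, to the HNF1 motif GTTAATNA, the C/EBP motif TTNNGNAA or the STAT3-type motif CTGGGAA.
Fgg, chr3:83007474-83007723, plus strand: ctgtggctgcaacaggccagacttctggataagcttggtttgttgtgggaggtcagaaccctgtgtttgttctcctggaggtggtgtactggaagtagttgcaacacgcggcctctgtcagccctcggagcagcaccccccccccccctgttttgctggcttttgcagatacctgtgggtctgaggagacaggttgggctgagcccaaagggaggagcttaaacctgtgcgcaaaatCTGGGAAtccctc
Fga, chr3:83025903-83026075, plus strand: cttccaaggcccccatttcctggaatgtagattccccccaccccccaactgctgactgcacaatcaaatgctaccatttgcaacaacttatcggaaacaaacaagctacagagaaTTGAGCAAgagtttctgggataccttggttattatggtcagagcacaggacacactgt
Fgb, chr3:83049864-83050113, minus strand: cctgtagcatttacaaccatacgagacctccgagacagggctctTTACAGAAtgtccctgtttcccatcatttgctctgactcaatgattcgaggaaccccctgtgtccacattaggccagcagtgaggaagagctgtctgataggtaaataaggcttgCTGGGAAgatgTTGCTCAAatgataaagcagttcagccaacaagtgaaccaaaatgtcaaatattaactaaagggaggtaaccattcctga
C6, chr15:4726960-4727174, plus strand: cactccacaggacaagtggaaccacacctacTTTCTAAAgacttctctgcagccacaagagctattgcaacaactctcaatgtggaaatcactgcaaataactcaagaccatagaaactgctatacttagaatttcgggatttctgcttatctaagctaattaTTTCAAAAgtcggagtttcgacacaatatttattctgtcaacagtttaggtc
C8a, chr4:104876399-104876648, minus strand: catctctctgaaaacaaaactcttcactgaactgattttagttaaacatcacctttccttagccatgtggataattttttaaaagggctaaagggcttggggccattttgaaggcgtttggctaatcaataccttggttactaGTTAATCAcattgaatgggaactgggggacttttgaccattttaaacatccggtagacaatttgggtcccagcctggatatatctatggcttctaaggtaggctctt
C8b, chr4:104766067-104766316, plus strand: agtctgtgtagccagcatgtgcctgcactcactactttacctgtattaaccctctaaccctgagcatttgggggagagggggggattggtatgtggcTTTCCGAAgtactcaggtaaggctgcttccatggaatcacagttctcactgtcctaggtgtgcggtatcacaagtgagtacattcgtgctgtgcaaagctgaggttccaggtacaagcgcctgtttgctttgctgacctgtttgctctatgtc
C9, chr15:6445096-6445326, plus strand: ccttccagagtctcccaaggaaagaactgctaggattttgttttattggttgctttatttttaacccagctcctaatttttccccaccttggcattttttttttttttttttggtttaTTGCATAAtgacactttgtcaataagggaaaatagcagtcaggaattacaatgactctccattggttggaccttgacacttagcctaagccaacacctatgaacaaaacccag
F5, chr1:164151585-164151834, plus strand: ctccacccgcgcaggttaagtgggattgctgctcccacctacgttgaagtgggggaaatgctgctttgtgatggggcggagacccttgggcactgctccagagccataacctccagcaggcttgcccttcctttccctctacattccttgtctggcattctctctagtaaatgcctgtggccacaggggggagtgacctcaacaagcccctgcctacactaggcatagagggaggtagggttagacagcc

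Promoters were at hand in the RefSeq table for 35 of the 46 members. The HNF1 motif, bound by a hepatocyte transcription factor, was in the 250 bases before the start in 5 of the 35 (14.3%) and in 2.73% of the 27025 genes with such a window; the 5 were C4bp, C8a, Cfp, F13b and Fga. The C/EBP motif was in 16 of 35 (45.7%) and in 40.3% of all, and the STAT3-type motif in 5 of 35 (14.3%), namely C1ra, F9, Fgb, Fgg and Masp2, and in 10.4% of all. The HNF4 motif CAAAGTCCA was in none of the 35 and in 0.451% of all. In Fga the HNF1 match lay at bases -45 to -38, past the stretch printed, and its C/EBP match at -135 to -128. In Fgb a STAT3-type match at -91 to -85 stood beside a C/EBP match at -80 to -73. C6 held C/EBP matches at -219 to -212 and -87 to -80, and F5 held no match to the 4 motifs. None was in the F8 window either, but that window (chrX:75380042-75380291) lies inside the gene as annotated in the counts (75172715-75382615). It therefore does not describe the sequence before that gene's start. The matches printed do not overlap one another, and a match is a description of the letters only.

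WT liver was set against WT brain with 1 scaling over these 6 libraries, the mice being the same in both tissues. Of the 44 members tested, 42 were higher in liver and 1, F3, was lower (edgeR quasi-likelihood test, adjusted p under 0.1); over all 17694 genes tested, 35.4% were higher and 42.9% lower in liver. Since the genes were listed as factors made by liver, the direction is a check of the list. The 20 complement genes tested had a median log2 difference of 9.91 and the 24 clotting genes one of 11.46, against -0.16 over all genes tested.

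**Figure D1:**
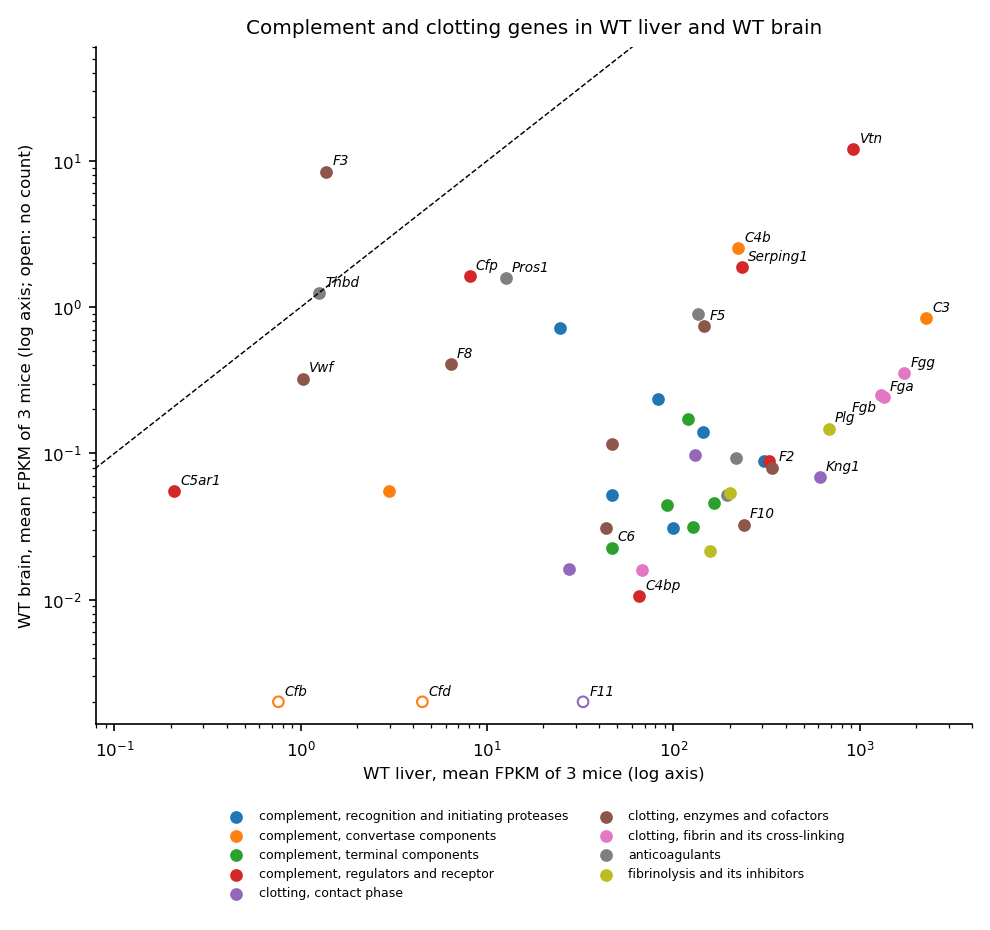
Mean FPKM of the 46 genes in WT liver (x axis) and WT brain (y axis), 3 mice each, both on log axes with 1 scaling over the 6 WT libraries; colours give the role and the dashed line marks equal levels. F3 lies above the line (1.37 FPKM in liver, 8.43 in brain), Thbd lies on it (1.25 and 1.24), and Cfb, Cfd and F11, drawn as open circles at the bottom, had no count in WT brain.

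F3, tissue factor, the cell-surface cofactor of factor VIIa, had 45, 40 and 56 counts in the livers of WT mice B, D and E and 360, 617 and 497 in their brains, and was at 3.47 ± 0.561 CPM in liver against 21.3 ± 3.20 in brain (SD, n = 3), a log2 difference of -2.62 (SE 0.21, adjusted p = 1.19e-06, edgeR), or 6.13-fold higher in brain. Thbd had 64, 51 and 75 counts in liver and 70, 182 and 70 in brain, or was at 4.66 ± 0.715 and 4.61 ± 2.40 CPM, a log2 difference of 0.01 (SE 0.37, adjusted p = 0.978, edgeR) whose sign changes with the scaling. Vwf (log2 difference 1.66, SE 0.33, adjusted p = 0.000941), Cfp, or properdin (2.304, SE 0.22, adjusted p = 4.03e-06), and Pros1, the cofactor of activated protein C (2.99, SE 0.21, adjusted p = 3.61e-07, all edgeR), had the next smallest excess in liver. Vwf had 226, 191 and 256 counts in liver and 56, 205 and 109 in brain, Cfp 175, 189 and 200 against 57, 64 and 72, and Pros1 685, 737 and 649 against 132, 188 and 122. These genes are known for expression in endothelium, myeloid cells or neural tissue besides liver. F8 (log2 difference 3.97, SE 0.31) and Masp1, a protease of the lectin pathway (5.10, SE 0.18), also had at least 78 counts in every brain library.

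At the other end, 9 members had at most 3 counts in each WT brain library, and their folds are lower bounds against a floor of 3 counts per library. F10, the gene of factor X, had 10036, 7607 and 8954 counts in WT liver and 2, 2 and 2 in WT brain, and C4bp 6772, 6812 and 4225 against 1, 3 and 1. Cpb2 had 3679, 3793 and 2840 counts in liver against 2, 0 and 0 in brain, and F11 1062, 832 and 1094 against none. F10 was at least 4890-fold, C4bp at least 3320-fold, Cpb2 at least 1920-fold, F13b at least 1280-fold, Mbl1 at least 1170-fold, Klkb1 at least 1090-fold and F11 at least 550-fold higher in liver. The bounds of Cfd and Cfb, which are low in liver too, were 31.1-fold and 16.1-fold. Kng1 was above the floor in brain, with 2, 7 and 7 counts, at a log2 difference of 13.02 (SE 0.39, adjusted p = 1.61e-09, edgeR). In the same libraries Alb, the albumin gene of hepatocytes, had 158 to 485 counts in brain and a ratio of liver to brain of 5830, and 8 of the 10 hepatocyte markers had ratios of 3370 to 7220, the exceptions being Ttr at 20.9 and Ass1 at 232. The 37 members above the floor in WT brain spread more widely by the same ratio of mean CPM, with 25 below the range of these 8 markers, 11 within it and 1, Kng1, above it. The fibrinogen genes were within it, at 4900 to 5550, as were Plg at 4620 and F2 at 4250, while C3 at 2680, Serpinc1 at 2350, C1s1 at 1030 and C1ra at 349 were below. This placing depends on leaving out Ttr and Ass1. Over all 10 markers the ratios ran from 20.9 to 7220, and C3, Serpinc1, C1s1 and C1ra lay within. Whether such counts came from brain cells was not tested.

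KO liver was compared with WT liver for 44 members, since Cfd and C5ar1 were below edgeR's filter on low counts. No member passed an adjusted p under 0.1 in edgeR, and 0.0% of the 14075 genes tested did. DESeq2 called 1 member, F8, against 1.1% of genes with an adjusted p. At an unadjusted p under 0.05 there were 2 members higher in KO, Proc and Serpinf2 (2.76% of all genes tested were), and 1 lower, F8 (4.57% of all were). The KO libraries all lay above the WT libraries for 6 members, Proc, Serpinf2, Plg, Vtn, F5 and F2, where 6.5% of all genes did so, and all below them for F8 and F9, where 6.44% of all did. The 44 members had a median log2 fold change of 0.10 and 32 lay above 0, beside -0.0024 over all genes tested with 6984 of 14075 above 0. The members' median was 0.029 without WT mouse E and 0.185 without WT mouse D, and leaving out 1 mouse turned the sign of 21 of the 44 members at least once.

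**Figure D2:**
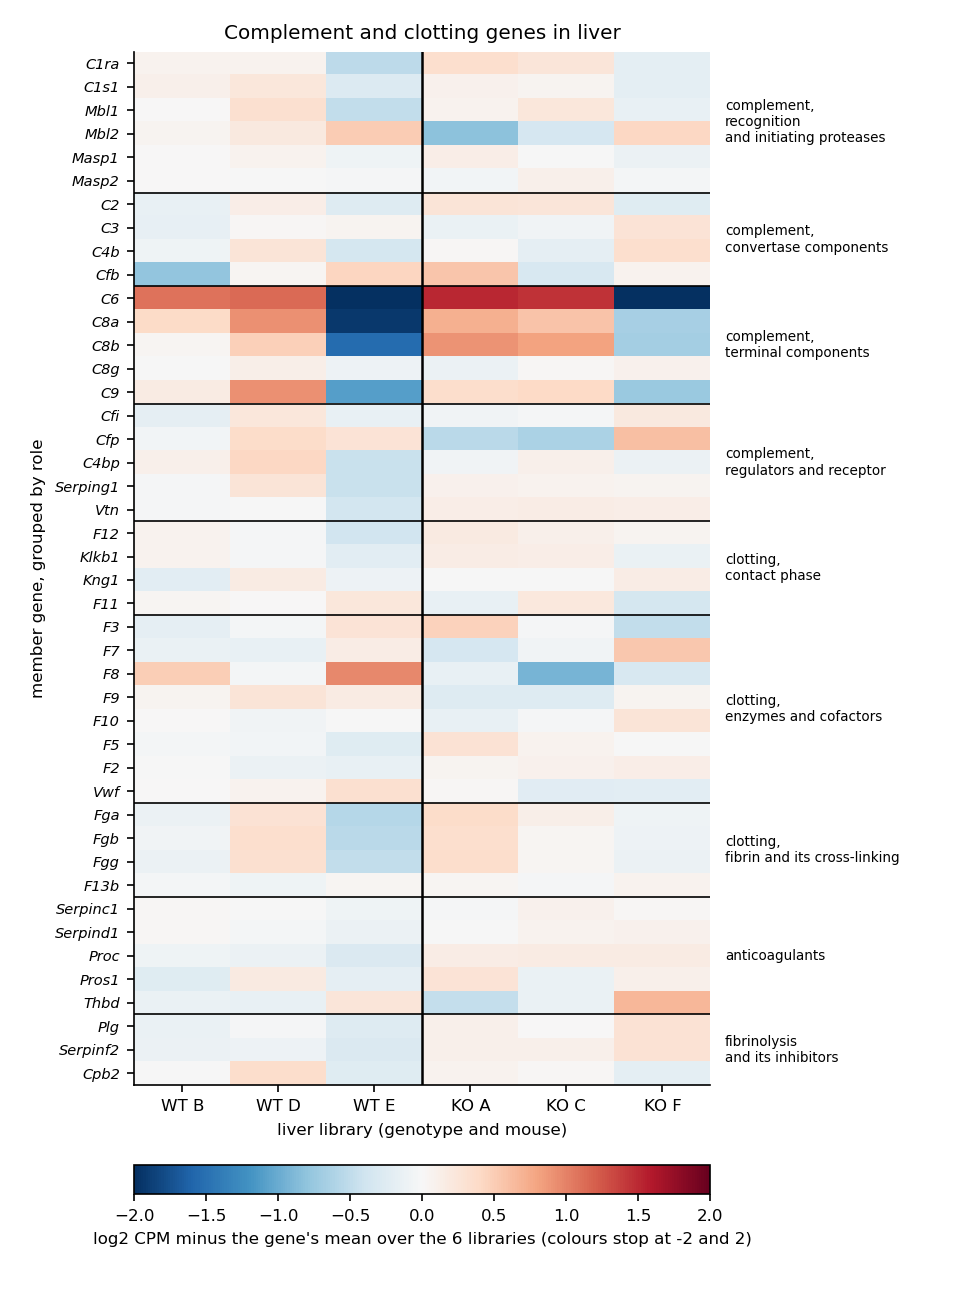
Log2 CPM of the 44 tested members in the 6 liver libraries, each gene centred on its mean over the libraries, with genes in rows by role and libraries in columns (3 WT, then 3 KO); red is above and blue below the gene's mean, and colours stop at -2 and 2. The darkest rows are C6, C8a, C8b and C9, where mice E and F are below the other 4 mice in either genotype.

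F8 (chrX:75172715-75382615, minus strand, mm10) encodes coagulation factor VIII, the cofactor of factor IXa. Its level in liver was 47.4, 33.0 and 65.6 CPM in WT and 30.4, 17.8 and 27.0 in KO. The highest KO library lay just below the lowest WT library, WT mouse D. The log2 fold change was -0.96 (SE 0.28, unadjusted p = 0.0105, adjusted p = 0.485, edgeR), from 4.91 ± 1.65 to 2.53 ± 0.658 FPKM (SD, n = 3), and DESeq2 gave an adjusted p of 0.053, within a range of 5.18e-06 to 0.985 over the 13 alternatives. Without a filter on low counts edgeR called F8 too, where 1.63% of all genes were called. In bulk tissue, fewer cells of a type and less RNA per cell cannot be told apart; markers of liver sinusoidal endothelium, the main known source of factor VIII, were at 306 to 410 CPM in sum in WT and 333 to 406 in KO, with 6 of 6 markers above the floor and 4 of 6 of positive sign. The F8 transcript has a low GC content, 39.0% (5.1% of tested genes had a lower one), and the 638 tested genes within 1 percentage point of it centred on -0.16 (median log2 fold change) in the same comparison. The part of GC content in the value of F8 was not tested.

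F9 encodes the enzyme that factor VIII serves, and like F8 lies on chromosome X. It was at 84.4, 97.5 and 91.7 CPM in WT and 68.5, 68.0 and 84.4 in KO, a log2 fold change of -0.31 (SE 0.14, unadjusted p = 0.0526, adjusted p = 0.682, edgeR). KO mouse F (84.41) was next to WT mouse B (84.42), so the groups were separated by less than their own spread. The F9 transcript has the same GC content as that of F8, and the 634 tested genes within 1 percentage point of it also centred on -0.16, and the part of GC content in the value of F9 was not tested. Vwf, whose product carries factor VIII in plasma, was at 11.6, 12.2 and 14.5 CPM in WT and 11.8, 9.89 and 9.99 in KO (log2 fold change -0.28, SE 0.16, unadjusted p = 0.121, edgeR), and these overlapped (-0.17 without WT mouse E). F5 was at 875.9, 864.7 and 760.9 CPM in WT and 1105, 948.7 and 896.9 in KO (0.24, SE 0.15, unadjusted p = 0.142, edgeR), and its log2 fold change was 0.15 without KO mouse A. F2 was at 1265, 1181 and 1158 CPM in WT and 1328, 1356 and 1396 in KO (0.18, SE 0.13), and neither F5 nor F2 overlapped. The remaining enzymes and cofactors were F7 (0.13), F10 (0.07) and F3 (-0.0016), with unadjusted p of 0.559 to 0.996.

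Proc encodes protein C, the anticoagulant protease that cleaves factors Va and VIIIa. It was at 388.0, 381.7 and 337.2 CPM in WT and 458.3, 462.3 and 464.1 in KO, so the 3 KO libraries lay close together above all WT libraries. The log2 fold change was 0.32 (SE 0.13, unadjusted p = 0.0346, adjusted p = 0.646, edgeR). The other anticoagulants were Pros1 (0.16, SE 0.16), Thbd (0.11, SE 0.33), Serpind1, or heparin cofactor II (0.09, SE 0.12), and Serpinc1 (0.06, SE 0.13), the last at 1483, 1449 and 1372 CPM in WT and 1444, 1546 and 1485 in KO. All 5 had a positive sign, which for Thbd turned without KO mouse F (-0.29), and only Proc had an unadjusted p under 0.05.

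Of the fibrinolysis genes, Serpinf2, the gene of the plasmin inhibitor alpha-2-antiplasmin, was at 371.5, 375.8 and 329.7 CPM in WT and 430.6, 432.3 and 488.9 in KO. Its log2 fold change was 0.33 (SE 0.14, unadjusted p = 0.0381, adjusted p = 0.659, edgeR), and its groups did not overlap. Plg, the gene of plasminogen, was at 1962, 2113 and 1788 CPM in WT and 2297, 2163 and 2615 in KO (0.27, SE 0.15, unadjusted p = 0.104, edgeR). For the plasmin precursor and its inhibitor alike, every KO library lay above every WT library, and neither passed the adjusted test. Without mice E and F their log2 fold changes were 0.14 for Plg and 0.21 for Serpinf2. Cpb2, which slows fibrinolysis, had a log2 fold change of -0.09 (SE 0.17) with overlapping groups.

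The 3 fibrinogen genes varied together between livers. Fgg was at 2674, 3629 and 2067 CPM in WT mice B, D and E and at 3680, 2991 and 2678 in KO mice A, C and F. Fga was at 3076, 4053 and 2235 CPM in WT and 4303, 3593 and 3122 in KO. Fgb was at 3758, 4999 and 2726 CPM in WT and 5002, 4087 and 3679 in KO. In all 3 genes mouse E was lowest and mice A and D were the highest pair, and the groups overlapped. Their log2 fold changes were 0.16, 0.23 and 0.15 with SE of 0.22 to 0.23, and became -0.02, 0.04 and -0.04 without WT mouse E and 0.40, 0.47 and 0.39 without WT mouse D. F13b, the carrier subunit of the cross-linking factor XIII, was even across the livers, at 127.1 to 141.5 CPM (log2 fold change 0.06, SE 0.12).

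Complement recognition and protease genes had small differences. The largest belonged to Mbl2, at 222.7, 244.5 and 304.1 CPM in WT and 122.0, 169.7 and 285.4 in KO (log2 fold change -0.42, SE 0.30, unadjusted p = 0.198, edgeR), where KO mouse F lay among the WT mice. Over the alternatives it ran from -0.82 without KO mouse F to -0.18 without KO mouse A, with -0.67 (unadjusted p = 0.00393, adjusted p = 0.328, edgeR) without mice E and F. C1ra (0.24, SE 0.21), Mbl1 (0.08, SE 0.21), C1s1 (-0.05, SE 0.17), Masp2 (0.02, SE 0.12) and Masp1 (0.01, SE 0.13) were closer to 0. Among convertase components, C3 was at 8130, 9286 and 9497 CPM in WT and 8315, 8698 and 11030 in KO (0.06, SE 0.17), and C4b (0.11, SE 0.20), C2 (0.18, SE 0.20) and Cfb (0.17, SE 0.41) had overlapping groups. Vtn was at 1550, 1562 and 1219 CPM in WT and 1734, 1742 and 1733 in KO (0.27, SE 0.15, unadjusted p = 0.112, edgeR), with no overlap, and its log2 fold change was 0.16 without WT mouse E. The other regulators, Serping1, or C1 inhibitor (0.11, SE 0.18), Cfi (0.06, SE 0.16), C4bp (-0.09, SE 0.21) and Cfp (-0.28, SE 0.33), overlapped, and Cfp was at -0.75 (adjusted p = 0.399, edgeR) without mice E and F.

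The contact phase, in which factor XII and kallikrein activate each other on a surface, had no member under an unadjusted p of 0.05. F12 was at 223.1, 208.7 and 162.3 CPM in WT and 240.3, 227.1 and 220.7 in KO (log2 fold change 0.21, SE 0.15, unadjusted p = 0.195, edgeR), with mouse E apart at the low end and a log2 fold change of 0.087 without it. Kng1 was at 1362, 1762 and 1460 CPM in WT and 1568, 1553 and 1747 in KO (0.09, SE 0.15). These groups overlapped, as did those of Klkb1 (0.11, SE 0.14) and F11 (-0.17, SE 0.16).

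**Figure D3:**
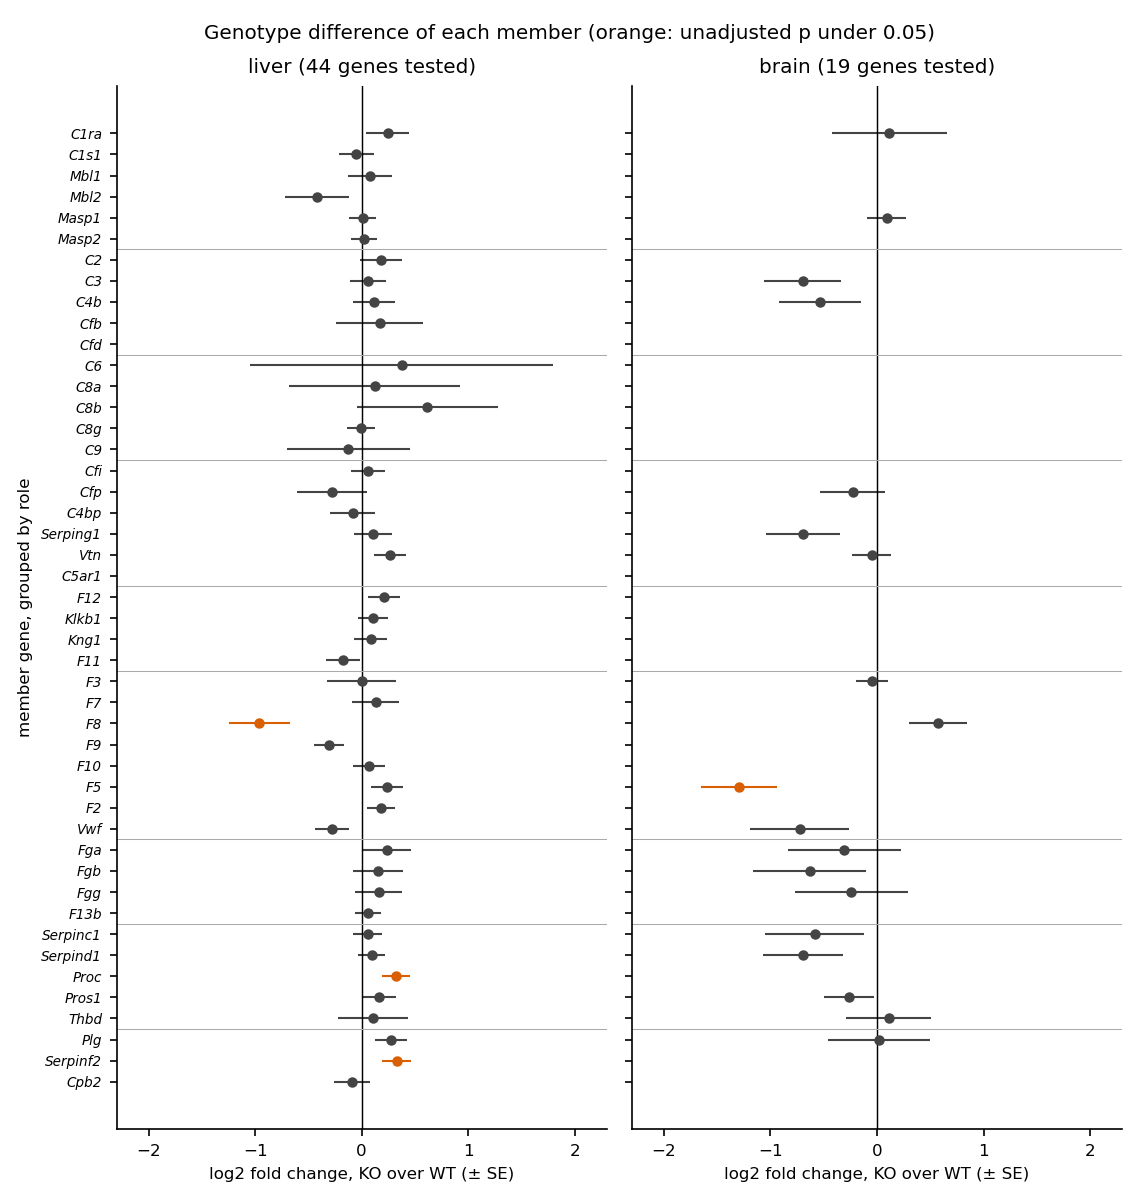
Log2 fold change of KO over WT with its SE (edgeR) for each member, genes in rows by role, in liver (left, 44 tested) and brain (right, 19 tested); orange marks an unadjusted p under 0.05. F8, Proc and Serpinf2 are marked in liver and F5 in brain, and the widest bars in liver belong to C6 (SE 1.42), C8a (SE 0.80), C8b (SE 0.66) and C9 (SE 0.57).

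The 2 members below edgeR's filter were low in every liver. Cfd, or adipsin, a complement protease known as an adipocyte product, had 6, 103 and 48 counts in WT and 0, 5 and 0 in KO, and its KO libraries all lay below the WT libraries. Its fitted log2 fold change was -5.10 (SE 1.96, unadjusted p = 0.00912, adjusted p = 0.348) in DESeq2 and -4.98 (SE 1.62, unadjusted p = 0.0262, adjusted p = 0.568) in edgeR without the filter, and was not called in either. Where it passed edgeR's filter with 1 mouse left out, it was at -4.40 without KO mouse F and at -5.54 (unadjusted p = 0.000831, adjusted p = 0.985, edgeR) without WT mouse B. Without KO mouse C, which held the 5 KO counts, the fit gave -8.82. The KO group then had no count, so this value is not a measured fold. Beside Cfd, the 5 adipocyte markers were at 3.55 to 4.65 CPM in sum in WT liver and 0.156 to 0.559 in KO liver. Of the 5, Cidec had 69, 57 and 20 counts in WT and 5, 10 and 3 in KO, while Adipoq, Plin1 and Lep had counts in WT mouse E only and were at 0 in the other 5 livers. In WT mouse D, where Cfd was highest, Cidec was the only marker with counts. The part of adipocytes in the counts of Cfd was not tested. C5ar1 had 1, 17 and 2 counts in WT and 1, 4 and 6 in KO (-1.05, SE 1.26, unadjusted p = 0.408 in DESeq2), with neutrophil markers at 0.308 to 3.23 and 0.0559 to 0.601 CPM in sum. The 6 Kupffer cell markers, all above the floor, were at 181.8, 310.3 and 214.0 CPM in sum in WT and 133.3, 125.6 and 252.0 in KO, with 6 of 6 of negative sign, a median log2 fold change of -0.56 and 1 of them, Marco, at an unadjusted p under 0.05 in edgeR. Cfp, which myeloid cells also make, was at 8.99, 12.08 and 11.33 CPM in WT and 6.43, 6.03 and 14.2 in KO, so KO mice A and C were lowest and KO mouse F high in Cfp and in these markers alike. The part of Kupffer cells in the values of Cfp and C5ar1 was not tested.

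Among the 44 tested members, the widest spread in liver lay in the terminal components, which assemble the membrane attack complex, and it split the mice within each genotype. C6 was at 182.3, 189.4 and 11.2 CPM in WT mice B, D and E and at 243.8, 234.3 and 18.3 in KO mice A, C and F. Mice E and F, the pair with at most 20 counts of Y-linked genes, were low in both genotypes, and the mean of the other 4 mice was 14.4 times theirs. C8a was at 106 and 254 CPM in mice E and F against 524 to 758 in the others (3.52-fold), C8b at 67.8 and 123 against 202.7 and 272.3 in WT and 365.0 and 343.9 in KO (3.11-fold) and C9 at 101.4 and 129.6 against 243.5 to 408.3 (2.63-fold). C8g, which encodes the gamma chain of C8, had no such split, at 129 and 147 CPM against 127 to 150. These ratios are given as a description and were not tested.

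**Figure D4:**
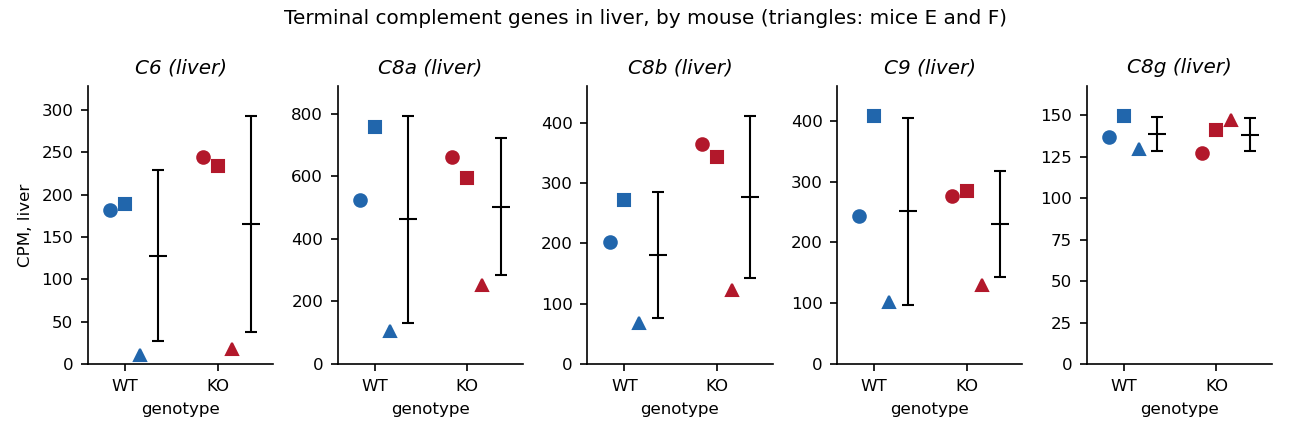
CPM of C6, C8a, C8b, C9 and C8g in liver (y axes start at 0) by genotype (x axis), with 1 point per mouse, blue for WT and red for KO; black marks are the mean ± SD of 3 mice. The triangles, mice E and F, are the lowest point of either genotype in C6, C8a, C8b and C9, while C8g lies between 127.1 and 149.6 CPM.

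Over all members, mice E and F were both below the other 4 mice for 13 of 44 (15.4% of all genes tested were) and both above them for 4 of 44, Mbl2, C3, F7 and Thbd (14.2% of all were). Besides the 4 terminal components, the 13 were C1ra, C1s1, Mbl1, Masp1, C2, C4bp, Klkb1, Fgb and Cpb2, with the mean of the other mice 1.11 to 1.46 times that of E and F. Within the strata, the log2 ratio of KO to WT was 0.86 (F over E) and 0.58 (A and C over B and D) for C8b, 0.70 and 0.36 for C6, 1.26 and -0.03 for C8a, and 0.35 and -0.22 for C9, so C8b and C6 had 1 sign in both strata and C8a and C9 had not. With the presence of Y-linked transcripts as a covariate, edgeR called C8b in KO liver (log2 fold change 0.67, SE 0.13, adjusted p = 0.0926), where 0.583% of all genes were called. The log2 fold change was 0.62 (SE 0.66, adjusted p = 0.907) without that covariate, 0.58 (SE 0.17, unadjusted p = 0.00709, adjusted p = 0.389) without mice E and F and 0.62 (SE 0.74, adjusted p = 0.854) without a filter on low counts, all in edgeR, and 0.615 (SE 0.71, adjusted p = 1.0) in DESeq2. Leaving out 1 mouse at a time moved it from 0.22 without WT mouse E to 1.04 without WT mouse D, with an adjusted p of 0.759 to 0.995 in edgeR.

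In brain 19 members had enough counts to be tested, 7 of complement and 12 of clotting, and none passed an adjusted p under 0.1 in edgeR, where 0.064% of the 17188 genes tested did. DESeq2 called 1, F5, against 1.58% of genes with an adjusted p. At an unadjusted p under 0.05, no member was higher in KO (5.96% of all genes were) and 1, F5, was lower (5.01% of all were). Of the 19, none had all KO libraries above the WT libraries (8.4% of all genes tested did) and 1, F5, had them all below (7.94% of all did). Among members too low to be tested, Masp2 and Klkb1 lay above and C1s1 below, on at most 12 counts in any brain library. The 19 members centred on a log2 fold change of -0.26 (median), with 14 below 0, and at -0.129 without WT mouse D and -0.415 without WT mouse E, the range over the alternatives. Leaving out 1 mouse turned the sign of 8 of the 19 at least once. Over all genes tested the median was -0.0017.

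F5 (chr1:164151838-164220277, plus strand, mm10) encodes factor V, the cofactor of factor Xa. It had 72, 187 and 130 counts in WT brain and 21, 54 and 42 in KO brain, or 4.63, 9.36 and 6.52 CPM against 1.70, 3.88 and 2.76. Every KO library was below every WT library. The log2 fold change was -1.29 (SE 0.35, unadjusted p = 0.00471, adjusted p = 0.340, edgeR), and DESeq2 gave -1.31 with an adjusted p of 0.0634, within a range of 0.00149 to 0.943 over the 13 alternatives. Without a filter on low counts edgeR called it as well, where 3.15% of all genes were called. Of the choroid plexus markers in these brains, 7 of 7 had a negative sign too, with a median log2 fold change of -0.88 (4 of them at an unadjusted p under 0.05), as had the cerebellar markers (5 of 5, median -1.76). The hepatocyte markers, of which Ttr is also made by choroid plexus, were at 225 to 395 CPM in sum in WT brain and 128 to 189 in KO brain. Most of that sum was Ttr, with 3798, 6866 and 3908 counts in WT and 1198, 2235 and 2149 in KO. The part of these differences in the value of F5 was not tested.

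F8 had 108, 83 and 78 counts in WT brain and 106, 106 and 92 in KO brain, or 6.95, 4.16 and 3.91 CPM against 8.598, 7.608 and 6.052 (log2 fold change 0.57, SE 0.27, unadjusted p = 0.0639, edgeR), and WT mouse B lay among the KO mice. Leaving out 1 mouse moved the log2 fold change from 0.43 without WT mouse E to 0.88 without WT mouse B (unadjusted p = 0.00793, adjusted p = 0.281, edgeR). The 844 tested genes within 1 percentage point of its GC content centred on 0.25 (median log2 fold change) in brain. The endothelial markers of brain were at 73.6 to 104 CPM in sum in WT and 68.8 to 79.9 in KO.

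Serping1 was at 3.99, 8.51 and 3.76 CPM in WT brain and 3.001, 3.876 and 3.157 in KO brain (log2 fold change -0.70, SE 0.35, unadjusted p = 0.0728, edgeR). C3 was at 4.76, 8.36 and 2.96 CPM in WT and 3.41, 3.02 and 3.49 in KO (-0.70, SE 0.36, unadjusted p = 0.0846, edgeR). In both genes WT mouse D was the highest library and the groups overlapped. Serpind1 was at 1.865, 2.904 and 2.507 CPM in WT and 0.892, 1.94 and 1.64 in KO (-0.69, SE 0.37, unadjusted p = 0.0922, edgeR), with KO mouse C above WT mouse B. Vwf was at 3.60, 10.3 and 5.47 CPM in WT and 3.49, 6.17 and 2.11 in KO (-0.72, SE 0.47), and C4b at 12.2, 27.9 and 13.1 against 8.76, 18.1 and 9.87 (-0.54, SE 0.38). Pros1 was at 8.49, 9.41 and 6.12 CPM against 7.95, 6.67 and 5.46 (-0.26, SE 0.24). Fgb, with 19, 35 and 11 counts in WT and 13, 7 and 11 in KO (-0.63, SE 0.53), and Serpinc1, with 16, 26 and 12 against 7, 9 and 11 (-0.58, SE 0.46), rested on few counts. These 5 had unadjusted p of 0.155 to 0.298, and WT mouse D was highest for each of them. Without WT mouse D the log2 fold changes were -0.05 for C4b, -0.21 for Serping1 and Fgb, -0.22 for C3 and Vwf, -0.31 for Serpinc1 and -0.13 for Pros1, and at the other end of the alternatives they reached -0.93 for C4b and Serpinc1, -1.22 for Vwf, -1.03 for C3, -0.90 for Serping1, -0.97 for Fgb and -0.41 for Pros1. Serpind1 ran from -0.92 to -0.44. Transcripts of hepatocyte markers moved beside these genes, with Alb at 158, 485 and 224 counts in WT brain and 136, 135 and 206 in KO brain and Apob at 32, 74 and 31 against 20, 21 and 30, so that WT mouse D was highest here too. Of the 8 hepatocyte markers tested in brain, 6 had a negative sign and 2, Ttr and Apoa1, an unadjusted p under 0.05 in edgeR. The 8 centred on a log2 fold change of -0.47 (median). Their part in the values of the members was not tested. F3, the member of highest FPKM in WT brain after Vtn, was at 23.2, 30.9 and 24.9 CPM in WT and 25.3, 25.7 and 25.5 in KO (-0.05, SE 0.15), and Vtn was at 24.2, 36.5 and 29.6 against 27.2, 33.8 and 26.4 (-0.05, SE 0.18).

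**Figure D5:**
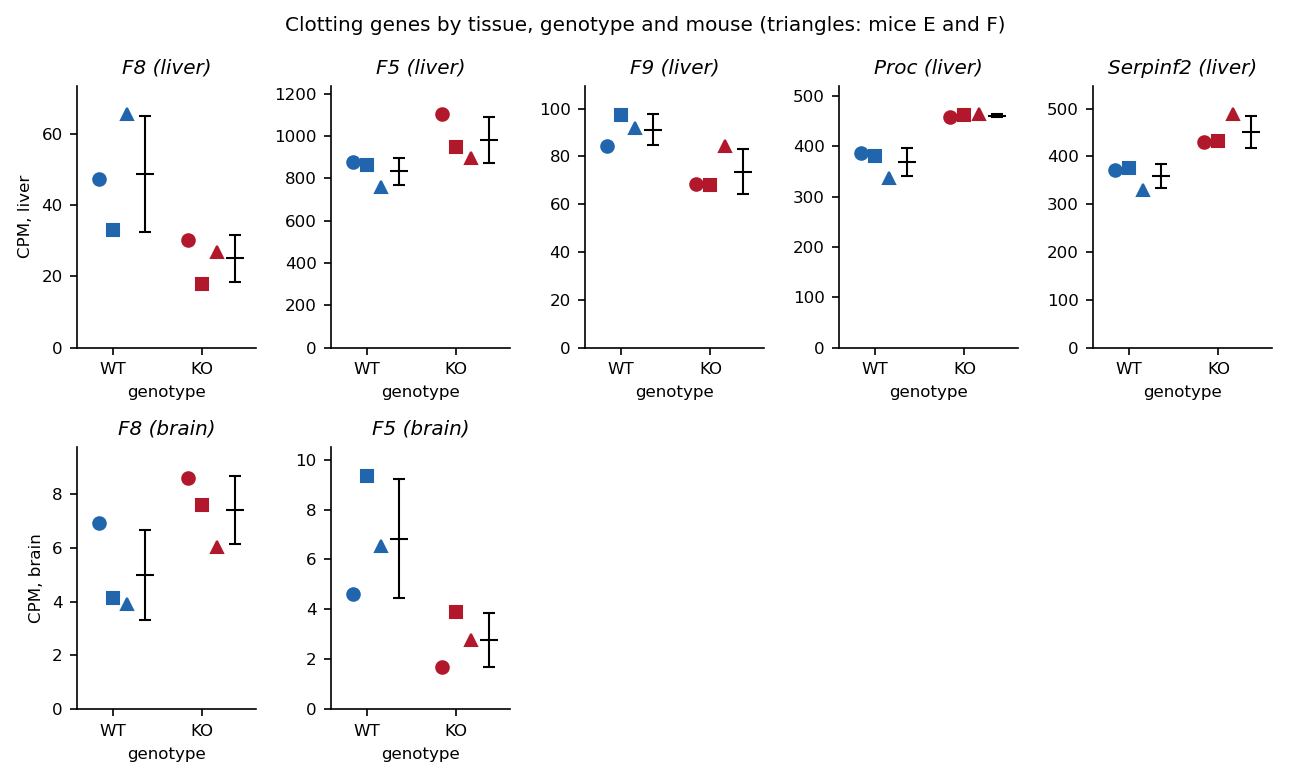
CPM of F8, F5, F9, Proc and Serpinf2 in liver (top) and of F8 and F5 in brain (bottom), by genotype on the x axis, with y axes from 0 and 1 point per mouse (blue WT, red KO, triangles mice E and F); black marks are the mean ± SD of 3 mice. In liver the KO points of F8 and F9 lie below the WT points and those of F5, Proc and Serpinf2 above them, whereas in brain the KO points of F5 lie below the WT points and those of F8 overlap them.

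Whether the genotype difference of a member itself differed between the tissues was tested over all 12 libraries. edgeR called no member and 0.0% of the 18944 genes tested, and at an unadjusted p under 0.05 there were 6 members, 3 in each direction, where 10.6% of all genes passed. F5 had a log2 fold change higher in liver than in brain by 1.56 (SE 0.38, unadjusted p = 0.0012, adjusted p = 0.178, edgeR), and F8 one lower in liver, at -1.50 (SE 0.41, unadjusted p = 0.00251, adjusted p = 0.232, edgeR). DESeq2 called both, with 1.55 (adjusted p = 0.00897) and -1.52 (adjusted p = 0.0379), where 2.08% of all genes were called; adjusted p-values ranged from 0.00897 to 0.497 for F5 and from 0.0379 to 0.490 for F8 over 11 alternatives. Without a filter on low counts edgeR called F5, where 0.531% of all genes were called. The other 4 were Serpind1 and Proc, higher in liver, and Masp2 and Klkb1, lower in liver. Proc, Masp2 and Klkb1 had at most 10 counts in any brain library.

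The rest of the 2 pathways was covered by 57 further genes in 4 lists. In liver 41 were tested and none was called by edgeR, while DESeq2 called 1, Cd59a (adjusted p = 0.028), against 1.1% of all genes. At an unadjusted p under 0.05 edgeR gave 0 higher and 3 lower, where 2.76% and 4.57% of all genes tested were higher and lower, and the 41 centred on a log2 fold change of -0.08 (median). The 3 were Cd59a, the membrane inhibitor of the attack complex, at 39.7 ± 9.74 CPM in WT and 21.9 ± 3.72 in KO (log2 fold change -0.86, SE 0.20, unadjusted p = 0.00171, adjusted p = 0.396, edgeR), Anxa2, a receptor for plasminogen and its activator (-0.51, SE 0.15, unadjusted p = 0.00791), and Tfpi2, a protease inhibitor (-0.34, SE 0.12, unadjusted p = 0.0203). The largest list, of 16 other complement components, had 10 of 13 tested below 0. Mcfd2 (-0.30, SE 0.14) and Lman1 (-0.20, SE 0.19) encode the receptor that carries factors V and VIII out of the endoplasmic reticulum, and had unadjusted p of 0.0537 and 0.298.

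In brain 26 of the 57 were tested and none was called by edgeR, while DESeq2 called 1, A2m (adjusted p = 0.0221), against 1.58% of all genes. In edgeR there were 1 higher and 3 lower at an unadjusted p under 0.05, where 5.96% and 5.01% of all genes tested were. The 3 lower genes were A2m, Cd59a and C3ar1. A2m, the gene of the protease inhibitor alpha-2-macroglobulin, was at 21.2 ± 8.24 CPM in WT and 8.37 ± 4.08 in KO (log2 fold change -1.34, SE 0.37, unadjusted p = 0.00671, adjusted p = 0.355, edgeR), Cd59a at 6.34 ± 3.05 and 2.92 ± 1.26 (-1.12, SE 0.41, unadjusted p = 0.0219) and C3ar1, the receptor for C3a, at 1.47 ± 0.407 and 0.739 ± 0.224 (-0.99, SE 0.43, unadjusted p = 0.0456). The microglial C1q genes C1qa and C1qb had log2 fold changes of 0.19 and -0.13, within their SE of 0.19 and 0.17.

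Transcription factors and signals known to act on these genes in hepatocytes were listed as well. Of 12 hepatocyte factors, 2 were higher at an unadjusted p under 0.05 in liver (2.76% of all genes tested were) and none was called by edgeR, Foxa1 at 16.4 ± 4.17 CPM in WT and 33.1 ± 13.3 in KO (log2 fold change 1.02, SE 0.32, unadjusted p = 0.0157, adjusted p = 0.520, edgeR) and Foxa2 at 23.8 ± 3.11 and 31.6 ± 5.03 (0.41, SE 0.16, unadjusted p = 0.0291), and DESeq2 called Foxa1 alone (adjusted p = 0.0809), against 1.1% of all genes. The 5 genes of interleukin 6 signalling, which drives the acute phase response, were all of positive sign, with none under 0.05 and Socs3 at 3.88 ± 1.21 and 9.06 ± 9.70 CPM. Of 14 acute phase genes, 10 had a negative sign (median -0.30) and Orm1 alone an unadjusted p under 0.05 (-0.56, SE 0.24, unadjusted p = 0.0463, adjusted p = 0.672, edgeR), where 4.57% of all genes tested were lower. In brain, Prox1, a factor of hepatocytes and of several neuron types, was at 45.2 ± 8.23 and 26.7 ± 7.55 CPM (-0.76, SE 0.22, unadjusted p = 0.00643, adjusted p = 0.355, edgeR), with an adjusted p of 0.0922 in DESeq2, where 1.58% of all genes were called, and neither the interleukin 6 list nor the acute phase list held a gene under 0.05.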

How the data were processed

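Total RNA from liver and brain of 6 mice was sequenced as 12 libraries of 14403309 to 21623180 counts. The authors deposited raw counts per gene, made with Trimmomatic, STAR 2.7.3a on mm10 and stranded featureCounts over exons, with FastQC 0.11.5 among the tools in the submitters' processing notes. The 46 genes were matched by identifier, 45 of them with the same coordinates in GENCODE vM21, and FPKM was computed from the counts. Groups came from the labels. The members and gene lists were chosen with earlier results of these data known.

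Comparisons used edgeR 4.0.16 in R 4.3.3 (quasi-likelihood test, TMM factors, filter on low counts by group, robust) over all genes, with Benjamini-Hochberg adjustment and calls at an adjusted p under 0.1. Each tissue was fitted alone, WT liver and brain together over 6 libraries, and the difference of effects over all 12. DESeq2 1.42.0 was an alternative, as were its size factors in edgeR, TMM without mitochondrial genes, no filter, 1 fit of all libraries, Y-linked transcripts as a covariate, and leaving out mice. Genes at or under 3 counts per library were given bounds. Scripts were tested on simulated data. Given with all library values were the members with the 10 smallest p in each genotype comparison or called there, and the 5 at each end of the tissue comparison. The top member of each role by FPKM in WT liver and up to 3 genes per further list and comparison were named too. Genes named beyond this were chosen after their values were seen. The values of 1 gene of the further lists are not reported here. Replicates are separate mice, and floors cover counting error only.

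Liver and brain of a mouse share its letter in the labels, so mice pair the tissues. Deviations from the group means correlated between tissues over 12574 genes with r of -0.0446, -0.0567, -0.0177, 0.118, 0.126 and 0.112 for mice A to F.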

Additional observations from a re-analysis of the deposited data

Results flagged for a closer look

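Results came under a closer look where the genotype effect differed between the tissues by a test of the difference itself. In DESeq2 the log2 fold change of KO over WT was higher in liver than in brain by 1.553 for F5 (adjusted p = 0.00897) and differed by -1.517 for F8 (adjusted p = 0.0379). In edgeR neither difference passed, with adjusted p of 0.178 for F5 and 0.232 for F8. For F5, liver had a log2 fold change of 0.24 and brain one of -1.29, and for F8 liver had -0.96 and brain 0.57.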

How the results depend on the processing

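The number of members called was 0 in KO against WT liver, and became 1 in DESeq2 (F8), 1 without a filter on low counts (F8) and 1 with Y-linked transcripts as covariate (C8b). In brain it was 0 and became 1 in DESeq2 and 1 without the filter (F5 in both). For the difference between tissues it was 0 and became 2 in DESeq2 (F5 and F8) and 1 without the filter (F5). The cause was not tested. Thbd between WT liver and WT brain, at 0.01, was at -0.095 in DESeq2, -0.069 with its size factors, -0.009 with TMM without mitochondrial genes and -0.046 without the filter, and leaving out 1 mouse moved it from -0.375 without mouse E to 0.6 without mouse D. With the mouse as replicate block, 43 members were again called between the WT tissues, Thbd was at 0.12, and the differences of F5 (1.55, adjusted p = 0.268) and F8 (-1.50, adjusted p = 0.24) were not called in edgeR, so the block changed no call; leaving out a mouse gave 42 to 44 members called between WT tissues. Scaling without mitochondrial genes raised the FPKM of 6 of the highest members in WT liver by more than their SD, C3 to 2022 for example. Of the fold changes followed, 349 values under alternatives kept direction and side of the threshold, 7 newly passed it and 6 reversed, all 6 for Thbd. In brain 27 of 46 members had too few counts to be tested.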
